A study of Mus musculus with 9 samples.

Results

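The genes described here are Cd69, the sphingosine 1-phosphate (S1P) receptor genes S1pr1 and S1pr4, Cd44, and the integrin chain genes Itgal, Itgb2, Itga4, Itgb7 and Itgb1. They were chosen by gene name, with earlier results of these data known. All 9 were found, each in 1 row, among the 55487 genes of the expression table. RNA-seq was performed on CD4+ T cells isolated by negative selection from spleens of wild type (Trail-r+/+) C57BL/6 mice, with 3 libraries in each of 3 groups. The medium group was cultured without Abs, for a time that the sources used here do not give. The stimulated group received 3 µg/ml of anti-CD3 together with 2 µg/ml of anti-CD28 for 24 h, Abs that engage the T cell receptor complex and the costimulatory receptor CD28. The TRAIL-treated group received the same Abs with TRAIL, the death ligand that engages TRAIL-R, at 10 µg/ml for 24 h. Both comparisons with stimulated cells share the stimulated libraries, and both comparisons with medium share the medium libraries. The labels do not say whether the libraries of a group came from separate animals or cultures, so p-values measure only the spread between these libraries.

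Naive T cells cross high endothelial venules into lymph nodes, move through the tissue, and leave along a gradient of S1P that is low in the tissue and high in blood and lymph. S1PR1 is the receptor that reads this gradient for exit, and CD69, a lectin-like early activation antigen, binds S1PR1 and takes it off the surface. Integrins are pairs of 1 α and 1 β chain that hold T cells to vessel walls and to other cells. LFA-1 (chains encoded by Itgal and Itgb2) binds ICAMs, VLA-4 (Itga4 with Itgb1) binds VCAM-1 and fibronectin, and α4β7 (Itga4 with Itgb7) binds MAdCAM-1 of the gut. CD44 is a receptor for hyaluronan that is used as a surface marker of antigen-experienced T cells.

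On stimulation Itga4, S1pr1, S1pr4 and Itgb7 fell, and with TRAIL they rose, by the test described below. The 250 bases before the transcription start are printed for Itga4, Itgb7 and S1pr4, from RefSeq on GRCm38.p6, since they show what the genes that moved in both comparisons carry next to their start. Of the 9 genes, 5 were matched to the RefSeq promoter table, which were Itga4, Itgb7, S1pr4, Cd44 and Itgb1, and Cd69, S1pr1, Itgal and Itgb2 were not matched. Each line is written 5′ to 3′ on the strand of the gene, and capitals mark every match, on either strand, to CACCC (reverse complement GGGTG, the core letters bound by KLF family factors) or to TGTGGT (reverse complement ACCACA, the core letters bound by RUNX factors).
Itga4, chr2:79255176-79255425, plus strand: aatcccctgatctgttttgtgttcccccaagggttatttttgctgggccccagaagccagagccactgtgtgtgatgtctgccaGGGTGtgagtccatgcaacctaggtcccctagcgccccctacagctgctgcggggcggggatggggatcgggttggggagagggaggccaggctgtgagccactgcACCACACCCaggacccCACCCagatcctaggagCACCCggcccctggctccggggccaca
Itgb7, chr15:102231936-102232185, minus strand: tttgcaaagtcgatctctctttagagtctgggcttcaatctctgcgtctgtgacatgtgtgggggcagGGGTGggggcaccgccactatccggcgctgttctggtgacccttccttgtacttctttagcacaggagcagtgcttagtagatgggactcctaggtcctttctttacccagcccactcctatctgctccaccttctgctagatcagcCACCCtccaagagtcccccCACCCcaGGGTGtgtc
S1pr4, chr10:81500138-81500387, minus strand: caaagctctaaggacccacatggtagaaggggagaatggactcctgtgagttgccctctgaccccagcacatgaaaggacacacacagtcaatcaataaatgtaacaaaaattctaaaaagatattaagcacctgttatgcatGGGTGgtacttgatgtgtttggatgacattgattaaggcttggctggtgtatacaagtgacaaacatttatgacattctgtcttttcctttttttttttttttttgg
The Itga4 window held 4 matches to CACCC and 1 to TGTGGT, and the latter overlaps a CACCC. The Itgb7 window also held 4 matches to CACCC, and its last bases, with the last of these matches, lie within the first exon of the GENCODE model. The S1pr4 window held 1 such match, the Itgb1 window 2 and the Cd44 window 0. CACCC occurred in 52% of all 32851 RefSeq windows of this length, and at least 4 matches in 2.14% of them. The limit of 4 is the count of Itga4 and Itgb7 themselves, so this share is a description and no test. TGTGGT occurred in 14% of the windows. No window of the 5 held CCGGAA, the core of ETS factor sites, which 12% of all windows held, or GTAAACA, the core of FOXO sites, which 3.17% held. A match describes the letters of a window and is no measure of binding.

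Every level below is in TPM, a length-corrected abundance whose sum is the same for each library, so that levels can also be compared between genes. TPM keeps no read total, so depth is unknown, and each group mean and SD rests on 3 libraries. The SEs, intervals and limma p-values below come from 1 fit of all 9 libraries, in which the 3 groups share a spread. Differences were tested with limma on log2(TPM + 1) over the 15536 genes that reached 1 TPM in 3 or more libraries, and all 9 genes passed this filter. Calls needed both a p under 0.05 after Benjamini-Hochberg adjustment and a log2 fold change of 1 or more in either direction. Between libraries of 1 group, the correlation of log2(TPM + 1) across all genes was 0.993 to 0.997, and 13691 to 14909 genes per library reached 1 TPM. T cell markers were abundant throughout, with a summed level of the 12 genes of the T cell list of 5583 to 5639 TPM in medium, 5238 to 5544 TPM in stimulated and 5580 to 5925 TPM in TRAIL-treated libraries.

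Markers of other spleen cells were present and moved with the groups, as the plot of marker lists by library shows. The B cell list (13 genes, such as Cd79a, Ms4a1 and Cr2) summed to 10710 to 11140 TPM in medium, 1191 to 1279 TPM in stimulated and 5761 to 6450 TPM in TRAIL-treated libraries. All 13 fell on stimulation and 12 rose with TRAIL, and against medium 8 were lower in TRAIL-treated cells. The myeloid list (14 genes, such as Lyz2, C1qa and Csf1r) summed to 1762 to 1925 TPM, 49.2 to 56.31 TPM and 1466 to 1649 TPM in the same order, and all 14 fell and rose. Neutrophil genes (10 genes) summed to 877.4 to 1149 TPM, 34.49 to 51.31 TPM and 502.3 to 605.3 TPM, with 10 falling and 9 rising. Erythroid genes (8 genes) summed to 2165 to 2611 TPM, 32.68 to 50.39 TPM and 648.3 to 694.9 TPM, and all 8 fell and rose. NK cell genes summed to 229.2 to 281.8 TPM, 69.92 to 89.2 TPM and 86.41 to 94.22 TPM. CD8 T cell genes summed to 110.0 to 117.8 TPM, 94.21 to 104.6 TPM and 46.9 to 49.38 TPM, platelet genes to 93.96 to 114.0 TPM, 25.85 to 44.33 TPM and 58.4 to 70.48 TPM, and dendritic cell genes to 104.8 to 111.1 TPM, 176.0 to 191.3 TPM and 86.01 to 98.28 TPM. Of the 8 dendritic cell genes, 6 fell and 1 rose on stimulation (median -1.84) and 4 rose and 2 fell with TRAIL (median 1.27), and the higher sum in stimulated libraries came mostly from Bst2, with a mean of 65.3 TPM in medium and 171.5 TPM in stimulated cells. Of the 7 platelet genes tested, 6 fell and 0 rose on stimulation (median -1.56). With TRAIL only 1 rose and 0 fell (median 0.59), which was Clec1b, with means of 15.9, 0.304 and 14.0 TPM. Against medium 3 were lower in TRAIL-treated cells, among them Ppbp, with means of 10.2, 0.360 and 1.72 TPM. No marker of any list was at 0.0001 TPM, the value at which genes without signal are listed, in every library, but the neutrophil gene Retnlg and the erythroid gene Slc4a1 were at it in all 3 stimulated libraries. B cells and myeloid cells also express S1P receptors, CD44 and these integrin chains, so the levels below are those of the whole isolate. In such bulk RNA fewer cells of a type, less RNA per cell and more RNA from the remaining cells cannot be told apart. The last also lowers TPM, since TPM is a share of each library. The part of other cells in the results was not tested.

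**Figure D1:**
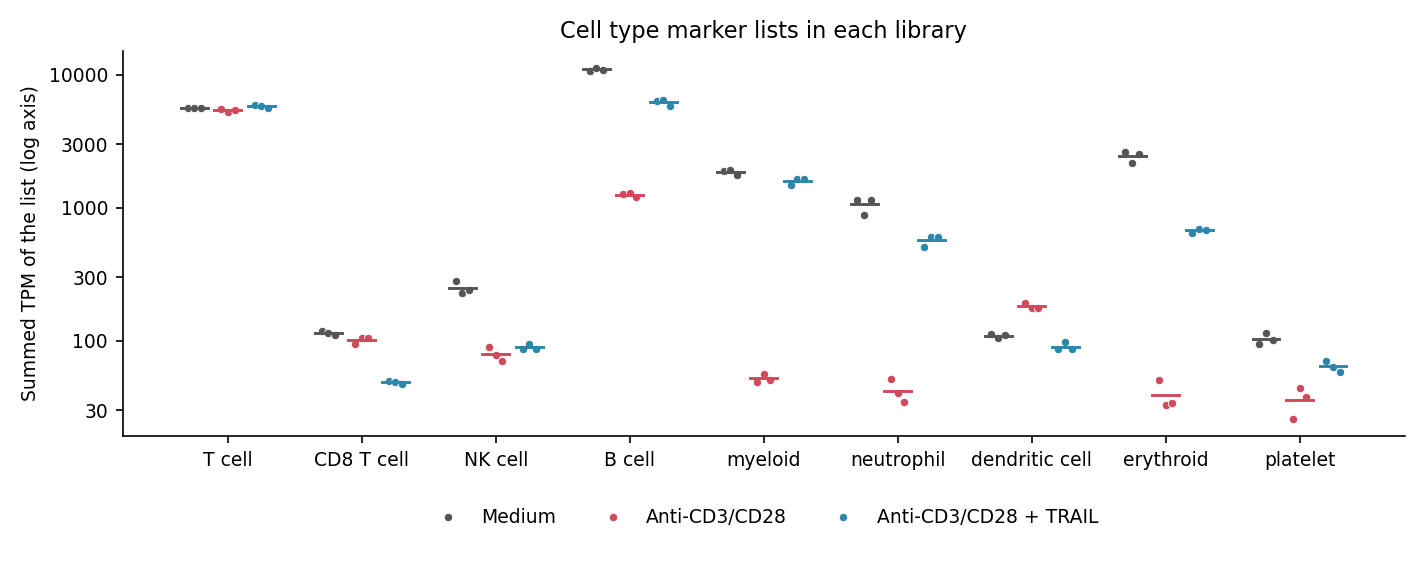
Summed TPM of 9 cell type marker lists (horizontal axis) on a log axis, with 1 point per library and a bar at the mean of the 3 libraries of each group. The T cell list stayed between 5238 and 5925 TPM in all libraries, whereas the myeloid list was at 49.2 to 56.31 TPM in stimulated libraries and at 1466 TPM or more in all others.

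In stimulated against medium cells, 4 of the 9 genes fell (S1pr1, S1pr4, Itga4 and Itgb7), 0 rose and 5 were not called. Of all genes tested, 19.5% were called lower and 12.4% higher. The median log2 fold change was -0.88 over the 9 genes and -0.15 over all genes tested. By the adjusted p alone 7 of the 9 passed, against 68.7% of all genes, and for 8 of the 9 the libraries of the groups did not overlap, against 72.6% of all genes. In TRAIL-treated against stimulated cells, the same 4 genes rose, 0 fell and 5 were not called, against 16.6% of all genes called higher and 14.3% called lower. The median was 0.93 over the 9 genes and 0.01 over all genes. The adjusted p alone was passed by 6 of the 9 against 67.1% of all genes, and 7 did not overlap against 70.4%. In TRAIL-treated against medium cells, 0 of the 9 genes were called in either direction, where 2.49% of all genes were called higher and 2.13% lower. The median was -0.24 over the 9 genes and -0.18 over all genes, 3 of the 9 passed the adjusted p alone against 32.6% of all genes, and 8 did not overlap against 50.6%. By the adjusted p alone, the counts of the 9 genes were thus near the share of all genes in each comparison. As the 9 genes were chosen with earlier results known, setting them beside all genes is a description and no test.

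**Figure D2:**
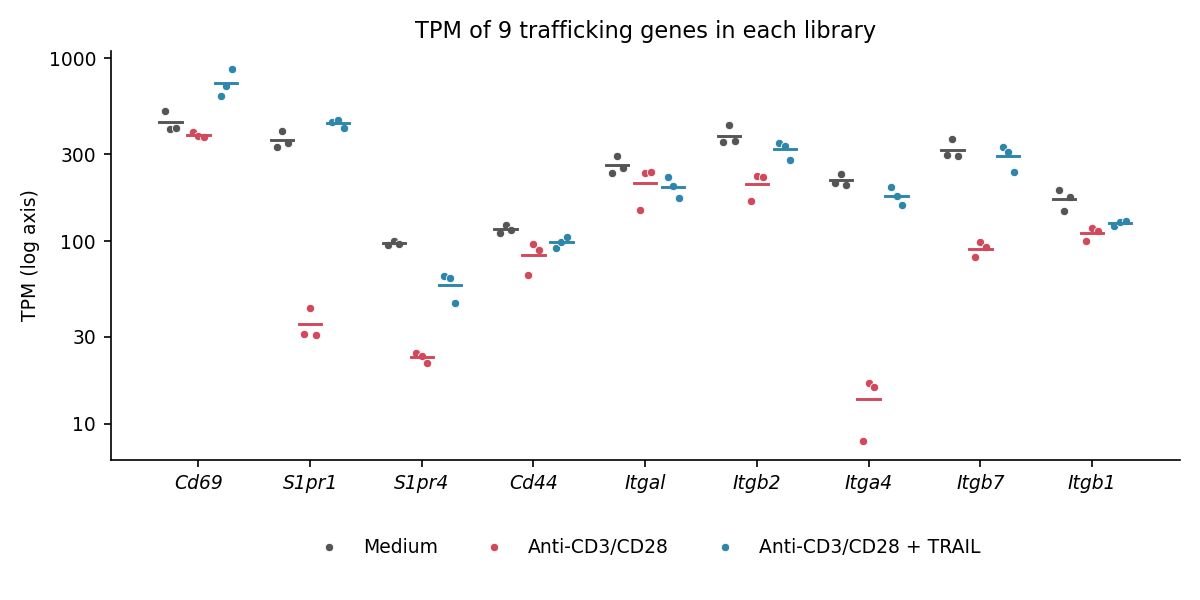
TPM of the 9 genes (horizontal axis) in each library on a log axis, with 1 point per library and a bar at the mean of the 3 libraries of a group. S1pr1 and Itga4 were at 8.047 to 43.25 TPM in stimulated libraries and at 157.1 TPM or more in all other libraries, whereas the stimulated and TRAIL-treated points of Itgal overlap.

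S1pr1 (ENSMUSG00000045092, GRCm38 chr3:115710433-115715072, minus strand), the exit receptor, was high in medium and TRAIL-treated cells and low in stimulated cells. Its level was 329.8, 399.0 and 346.2 TPM in the medium libraries, 31.22, 43.25 and 30.81 TPM in the stimulated libraries, and 450.7, 458.9 and 415.5 TPM with TRAIL. All 3 groups were separate, with the TRAIL-treated libraries above the medium libraries. The means were 358.3 ± 36.2, 35.1 ± 7.07 and 441.7 ± 23.1 TPM (SD, n = 3 each). S1pr1 fell by 3.33 on the log2 scale in stimulated cells (SE 0.14, limma adjusted p 1.3e-08) and rose by 3.63 with TRAIL (SE 0.14, adjusted p 8.6e-09), a ratio of mean TPM of 12.6. Against medium the log2 difference of TRAIL-treated cells was 0.30 (95% interval 0.00 to 0.61, adjusted p 0.112). S1pr1 was the 360th most abundant gene of the table by mean TPM in medium, the 4841st in stimulated and the 288th in TRAIL-treated cells.

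S1pr4 (ENSMUSG00000044199, chr10:81497747-81500132, minus strand), another S1P receptor of lymphocytes and myeloid cells, was at an intermediate level in TRAIL-treated cells. It was at 95.65, 99.67 and 97.13 TPM in medium, at 24.46, 23.46 and 21.65 TPM in stimulated and at 64.76, 62.84 and 45.75 TPM in TRAIL-treated libraries. The 3 groups did not overlap, and the TRAIL-treated libraries lay between the others. S1pr4 fell by 2.03 on stimulation (SE 0.13, adjusted p 3.2e-07) and rose by 1.27 with TRAIL (SE 0.13, adjusted p 1.1e-05). TRAIL-treated against medium cells gave a log2 difference of -0.76 (95% interval -1.05 to -0.47, adjusted p 0.00217), which passed the p but not the fold limit. Within libraries, the ratio of S1pr1 to S1pr4, taken like all ratios here on TPM + 1, was 3.42, 3.97 and 3.54 in medium, 1.27, 1.81 and 1.4 in stimulated and 6.87, 7.2 and 8.91 in TRAIL-treated cells. This ratio was thus lowest in stimulated and highest in TRAIL-treated cells with no overlap. It differed by 1.07 on the log2 scale between TRAIL-treated and medium cells (exact permutation test, two-sided, p 0.1, the smallest that 3 libraries against 3 can give, adjusted p 0.125 over the 15 tests of ratios).

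Cd69 (ENSMUSG00000030156, chr6:129267325-129275436, minus strand) was abundant in every group and highest with TRAIL. The medium libraries had 517.1, 412.5 and 414.3 TPM, the stimulated libraries 394.3, 374.4 and 371.5 TPM, and those with TRAIL 620.6, 706.6 and 872.0 TPM. All TRAIL-treated libraries were above all others, and all stimulated libraries were below the medium libraries by a small margin. The means were 447.9 ± 59.9, 380.1 ± 12.4 and 733.1 ± 128 TPM (SD, n = 3 each). In stimulated against medium cells the log2 difference was -0.23 (95% interval -0.53 to 0.08, adjusted p 0.16), and Cd69 was not called. In TRAIL-treated cells it was 0.93 against stimulated (95% interval 0.63 to 1.24, adjusted p 1.5e-04) and 0.70 against medium cells (95% interval 0.40 to 1.01, adjusted p 0.00407), past the p and under the fold limit in both. The first of these was 1.04 without TRAIL-treated replicate 1 and 1.03 under median-of-ratios scaling, and was then called. The ratio of S1pr1 to Cd69 within a library (TPM + 1) was 0.638, 0.967 and 0.836 in medium, 0.0815, 0.118 and 0.0854 in stimulated, and 0.727, 0.65 and 0.477 in TRAIL-treated cells. It was lowest in stimulated cells without overlap (log2 differences -3.10 against medium and 2.70 for TRAIL-treated against stimulated cells, exact permutation p 0.1 each, adjusted 0.125), and medium and TRAIL-treated cells overlapped (difference -0.40, exact permutation p 0.3).

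Itga4 (ENSMUSG00000027009, chr2:79255426-79333123, plus strand), the α4 chain of VLA-4 and α4β7, had the largest fold change of the 9 genes on stimulation, and with TRAIL its change was close to that of S1pr1. It was at 208.9, 233.7 and 204.1 TPM in medium, at 8.047, 16.85 and 15.94 TPM in stimulated and at 197.9, 176.0 and 157.1 TPM in TRAIL-treated libraries. The stimulated libraries were far below both other groups, with replicate 1 lowest, and the TRAIL-treated libraries were just below the medium libraries. Itga4 fell by 3.95 on the log2 scale (SE 0.22, adjusted p 1.3e-07) and rose by 3.66 with TRAIL (SE 0.22, adjusted p 2.6e-07), and TRAIL-treated against medium cells gave -0.29 (95% interval -0.79 to 0.21, adjusted p 0.355). It moved from rank 631 in medium to rank 8176 in stimulated and rank 774 in TRAIL-treated cells. Cerkl lies over Itga4 on the opposite strand, and its level was at most 3.786 TPM in any library.

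Itgb7 (ENSMUSG00000001281, chr15:102215995-102231944, minus strand), whose β7 chain pairs with α4 and with αE, fell and rose in the same comparisons. Its level was 296.1, 361.3 and 293.2 TPM in medium, 81.66, 98.74 and 92.43 TPM in stimulated and 327.5, 308.4 and 239.2 TPM in TRAIL-treated libraries. The stimulated libraries were below all others, and the TRAIL-treated libraries overlapped the medium libraries. Itgb7 fell by 1.79 (SE 0.14, adjusted p 1.4e-06) and rose by 1.66 with TRAIL (SE 0.14, adjusted p 2.5e-06). The log2 difference of TRAIL-treated from medium cells was -0.12 (95% interval -0.43 to 0.18, adjusted p 0.521), and it was 0.06 under median-of-ratios scaling and 0.01 without TRAIL-treated replicate 3.

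Itgb1 (ENSMUSG00000025809, chr8:128685654-128733200, plus strand), the β1 chain shared by the VLA integrins, was not called in any comparison. The medium libraries had 190.0, 146.4 and 174.4 TPM, the stimulated libraries 100.2, 117.8 and 114.1 TPM, and the TRAIL-treated libraries 120.5, 127.7 and 129.4 TPM. Medium libraries were highest, and the TRAIL-treated libraries lay just above the stimulated libraries without overlap. The log2 differences were -0.61 in stimulated against medium cells (95% interval -0.86 to -0.36, adjusted p 7.0e-04), 0.19 in TRAIL-treated against stimulated cells (-0.06 to 0.44, adjusted p 0.165) and -0.43 in TRAIL-treated against medium cells (-0.67 to -0.18, adjusted p 0.0168). Among the partners of the α4 chain, the ratio of Itgb7 to Itgb1 (TPM + 1) was 1.56, 2.46 and 1.68 in medium, 0.816, 0.84 and 0.812 in stimulated and 2.7, 2.4 and 1.84 in TRAIL-treated libraries. Itgb7 exceeded Itgb1 in every medium and TRAIL-treated library and was below it in every stimulated library (log2 differences -1.18 and 1.48, exact permutation p 0.1 each, adjusted 0.125). TRAIL-treated and medium libraries overlapped in this ratio (difference 0.30, exact permutation p 0.3).

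**Figure D3:**
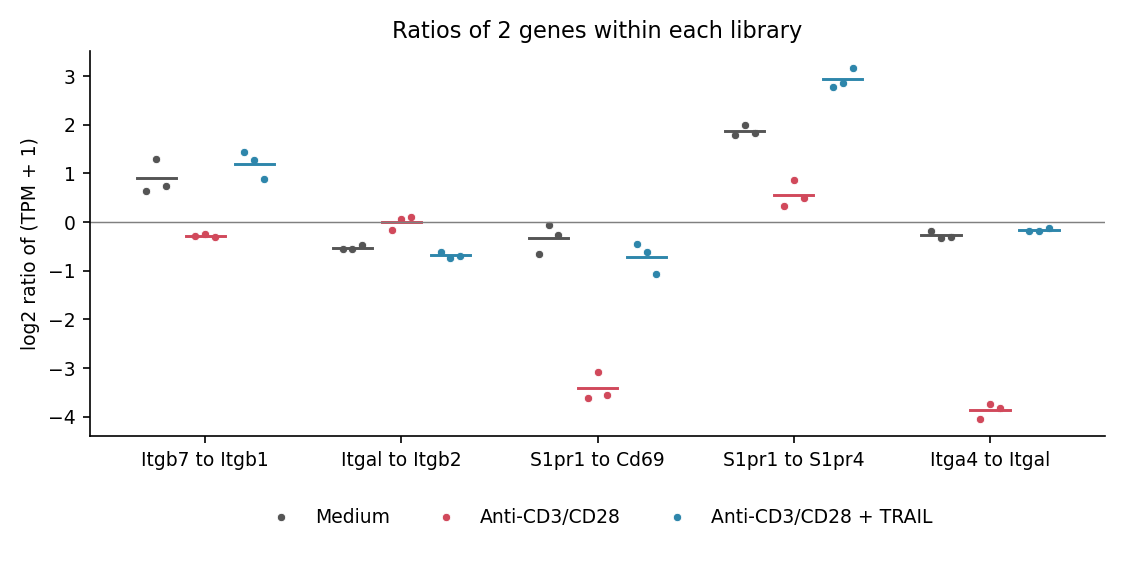
Ratios of 2 genes within each library, as log2 of (TPM + 1) of the first over the second (vertical axis), with 1 point per library and a bar at the mean of 3 libraries. In all 5 ratios the stimulated libraries stand apart from both other groups, and S1pr1 to S1pr4 is highest in TRAIL-treated cells.

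Itgal and Itgb2, the α and β chains of LFA-1, were not called in any comparison. Itgal (ENSMUSG00000030830, chr7:127296260-127335138, plus strand) was at 236.5, 293.1 and 252.4 TPM in medium, at 147.8, 237.6 and 239.7 TPM in stimulated and at 223.6, 199.7 and 172.0 TPM in TRAIL-treated libraries. The stimulated libraries were spread widely, with replicate 1 apart, and overlapped both other groups. No comparison passed the p, with log2 differences of -0.35 for stimulated against medium (95% interval -0.76 to 0.06, adjusted p 0.118), -0.04 for TRAIL-treated against stimulated (-0.46 to 0.37, adjusted p 0.845) and -0.39 for TRAIL-treated against medium cells (-0.81 to 0.02, adjusted p 0.13). The sign of the difference between TRAIL-treated and stimulated cells turned, to 0.05 with libraries scaled by median-of-ratios factors and to 0.17 with quantile normalization, and it ranged from -0.27 to 0.07 when single libraries were left out.

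Itgb2 (ENSMUSG00000000290, chr10:77530252-77565708, plus strand), the β2 chain shared with the myeloid integrins, was at 348.3, 430.2 and 353.0 TPM in medium, at 166.8, 226.7 and 223.6 TPM in stimulated and at 343.9, 330.9 and 278.9 TPM in TRAIL-treated libraries. The 3 groups did not overlap, with stimulated lowest and medium highest. The log2 differences were -0.88 for stimulated against medium (95% interval -1.20 to -0.56, adjusted p 3.4e-04) and 0.63 for TRAIL-treated against stimulated cells (0.31 to 0.96, adjusted p 0.00288), both past the p and under the fold limit. Under quantile normalization the first was -1.07 and was called. TRAIL-treated against medium cells gave -0.24 (-0.57 to 0.08, adjusted p 0.22). The ratio of Itgal to Itgb2 (TPM + 1) was 0.68, 0.682 and 0.716 in medium, 0.887, 1.05 and 1.07 in stimulated and 0.651, 0.605 and 0.618 in TRAIL-treated libraries. The groups did not overlap in it (log2 differences 0.53, -0.68 and -0.15, exact permutation p 0.1 each, adjusted 0.125). The ratio of Itga4 to Itgal, which sets the α chain of VLA-4 beside that of LFA-1, was on the same TPM + 1 scale 0.884, 0.798 and 0.809 in medium, 0.0608, 0.0748 and 0.0704 in stimulated and 0.885, 0.882 and 0.914 in TRAIL-treated libraries, so that only the stimulated libraries stood apart.

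Cd44 (ENSMUSG00000005087, chr2:102811141-102901665, minus strand) was not called in any comparison. Its level was 111.2, 122.4 and 114.6 TPM in medium, 65.51, 96.77 and 88.99 TPM in stimulated and 91.25, 99.08 and 105.4 TPM in TRAIL-treated libraries. The medium libraries were above all others, and stimulated and TRAIL-treated libraries overlapped. The log2 differences were -0.48 for stimulated against medium (95% interval -0.79 to -0.18, adjusted p 0.00997), 0.25 for TRAIL-treated against stimulated (-0.06 to 0.56, adjusted p 0.134) and -0.23 for TRAIL-treated against medium cells (-0.54 to 0.07, adjusted p 0.218). The table holds 1 value for the gene in each library, so standard and variant CD44 were not separated. Stimulated replicate 1 was the lowest of its group for 6 of the 9 genes (Cd44, Itgal, Itgb2, Itga4, Itgb7 and Itgb1). Without it the stimulated against medium difference of Cd44 was -0.32 and that of Itgal -0.12, the TRAIL-treated against stimulated difference of Cd44 was 0.08, and the calls of all 9 genes were the same.

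**Figure D4:**
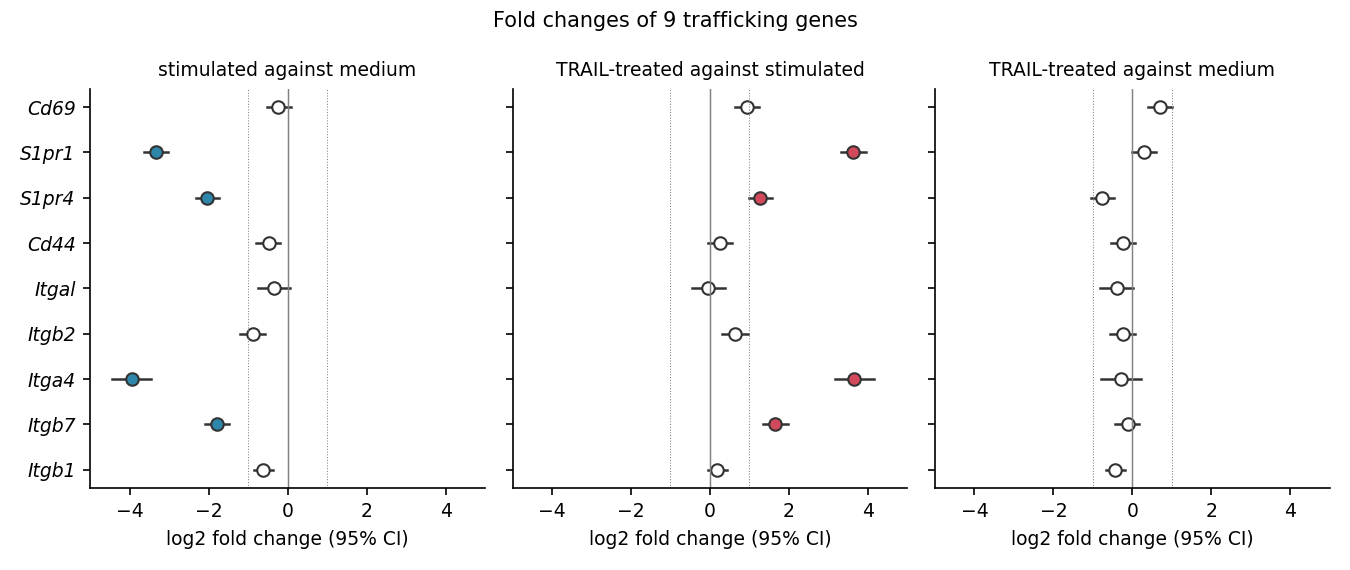
Log2 fold changes of the 9 genes (rows) in 3 comparisons (panels), with 95% intervals from limma as lines. Filled points were called (blue lower, red higher), open points were not, and dotted lines mark a log2 fold change of 1 in either direction. S1pr1, S1pr4, Itga4 and Itgb7 are filled in the first 2 panels and no point is filled in the last.

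By level, the order in medium cells was Cd69, Itgb2, S1pr1, Itgb7, Itgal, Itga4, Itgb1, Cd44 and S1pr4, from 447.9 to 97.5 TPM on average. Among the first 4 each gene overlapped the next, and no gene after them overlapped its neighbours. In stimulated cells it was Cd69, Itgal, Itgb2, Itgb1, Itgb7, Cd44, S1pr1, S1pr4 and Itga4, from 380.1 to 13.6 TPM, where Itgal and Itgb2 (208.4 ± 52.5 and 205.7 ± 33.7 TPM) overlapped, as did Itgb7 and Cd44. In TRAIL-treated cells it was Cd69, S1pr1, Itgb2, Itgb7, Itgal, Itga4, Itgb1, Cd44 and S1pr4, from 733.1 to 57.8 TPM, and Itgb2 and Itgb7 (317.9 ± 34.4 and 291.7 ± 46.5 TPM) overlapped, as did Itgal and Itga4.

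Of 13 other genes of S1P production, breakdown, transport and sensing that were tested, 6 fell and 0 rose on stimulation, 5 rose and 1 fell with TRAIL, and 1 fell in TRAIL-treated against medium cells. The medians were -0.76, 0.31 and -0.37, beside -0.15, 0.01 and -0.18 over all genes. None of the called genes of the list reached a group mean of 10 TPM. Of all genes tested, 19.5% were called lower and 12.4% higher on stimulation, and 16.6% higher and 14.3% lower with TRAIL. In TRAIL-treated against medium cells 2.49% were called higher and 2.13% lower. The same shares and medians over all genes apply to each other list of genes.

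Among 12 genes of lymph node homing, 6 fell and 1 rose on stimulation and 5 rose and 1 fell with TRAIL, with medians of -0.81 and 0.87. In TRAIL-treated against medium cells 0 rose and 1 fell, the core 2 O-glycan enzyme gene Gcnt1, with a median of -0.05. Klf2, a transcription factor known to drive S1pr1, had mean levels in the order medium, stimulated and TRAIL-treated of 375.2, 57.8 and 518.9 TPM, with log2 changes of -2.67 (adjusted p 1.4e-08) and 3.14 (adjusted p 6.4e-09). Foxo1, a factor known to act upstream of Klf2, had means of 90.7, 38.6 and 89.2 TPM and was called in both comparisons with stimulated cells (adjusted p 1.5e-04 and 1.8e-04). Cxcr4, the receptor of CXCL12, had means of 494.4, 24.8 and 614.8 TPM, with log2 changes of -4.26 (adjusted p 1.9e-10) and 4.58 (adjusted p 1.7e-10). St3gal4, a sialyltransferase of selectin ligands, went the other way, from 18.9 to 62.4 and 21.7 TPM (log2 changes 1.67 and -1.48, adjusted p 2.9e-07 and 7.6e-07). Ccr7, a chemokine receptor of naive cells for lymph node entry, was not called and is named here after its values were seen. Its means were 289.4, 537.2 and 563.9 TPM (log2 differences 0.89 and 0.07, adjusted p 8.8e-06 and 0.51). In TRAIL-treated against medium cells its difference was 0.96 (adjusted p 5.4e-05), past the p and under the fold limit.

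Inside-out signalling is the path by which T cell receptor and chemokine signals raise the binding strength of integrins already at the surface. Of 29 genes of this path tested, 11 fell and 0 rose on stimulation and 8 rose and 0 fell with TRAIL, and 0 were called in TRAIL-treated against medium cells. The medians were -0.64, 0.35 and -0.22, beside -0.15, 0.01 and -0.18 over all genes. Among all genes, 19.5% were called lower on stimulation and 16.6% higher with TRAIL. Rasgrp2, an exchange factor for the small GTPase RAP1, had means of 384.2, 25.7 and 330.5 TPM (log2 changes -3.86 and 3.64, adjusted p 4.0e-09 and 7.6e-09). Skap1, an adaptor of the RAP1 complex, had 215.1, 72.8 and 236.0 TPM (-1.55 and 1.68, adjusted p 3.8e-07 and 2.3e-07). Rasgrp1, an exchange factor for RAS, had 179.6, 63.1 and 193.5 TPM (-1.51 and 1.62, adjusted p 3.2e-06 and 2.0e-06), and Stk4, the MST1 kinase, had 284.2, 109.6 and 288.4 TPM (-1.39 and 1.41, adjusted p 1.1e-05 and 9.8e-06).

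**Figure D5:**
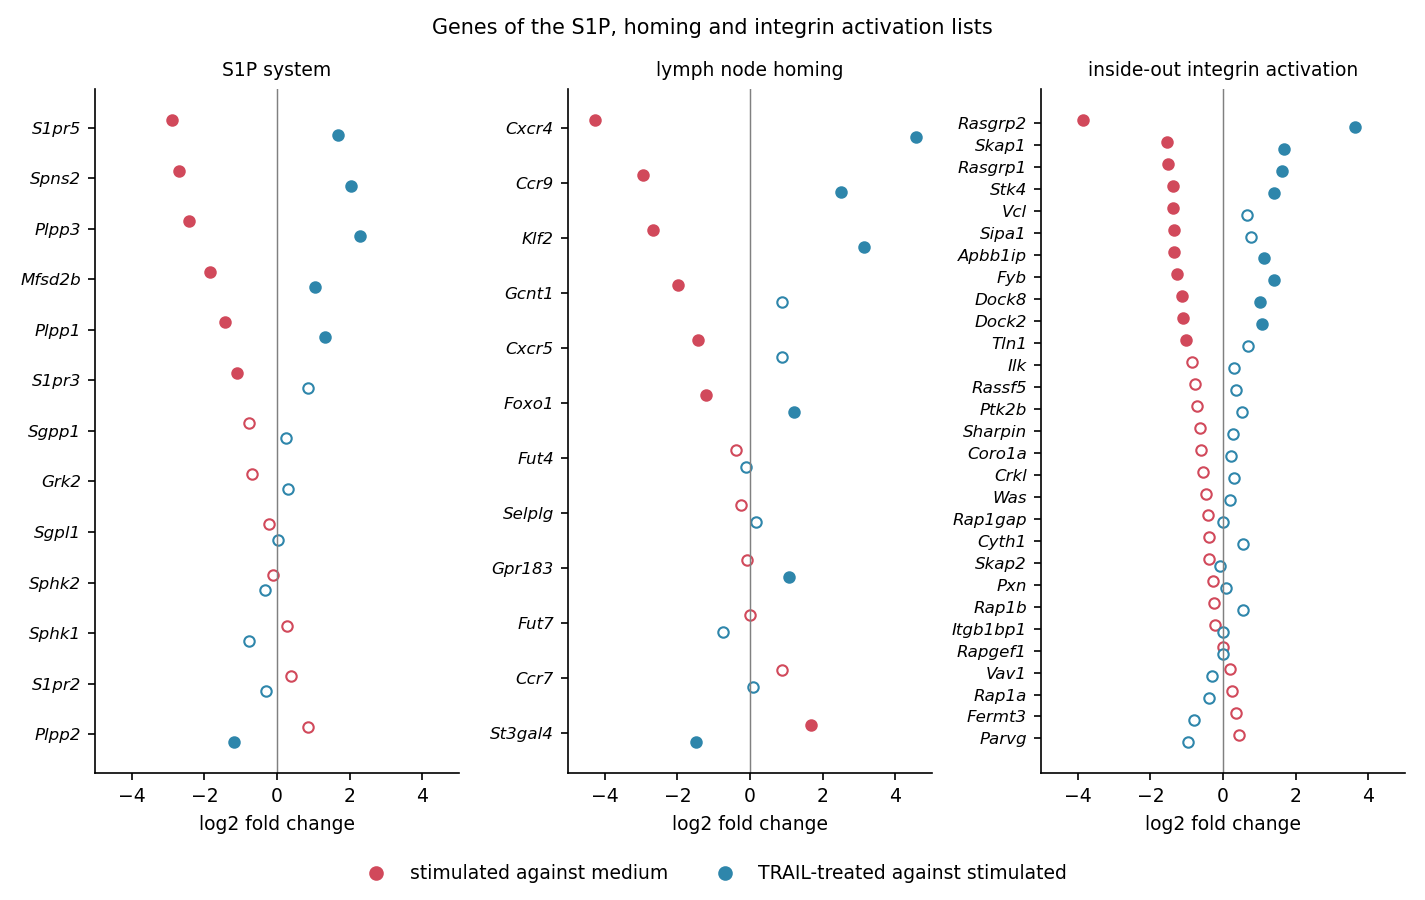
Log2 fold changes (horizontal axis) of the tested genes of 3 lists (panels), stimulated against medium in red and TRAIL-treated against stimulated in blue, with filled points for genes called changed. Rasgrp2, Klf2 and Cxcr4 are filled on the left in red and on the right in blue, and St3gal4 the other way round.

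Of the 22 other integrin chain genes, 17 were tested, of which 10 fell and 1 rose on stimulation, 9 rose and 2 fell with TRAIL, and 1 fell in TRAIL-treated against medium cells. The medians were -1.96, 1.22 and -0.31, beside -0.15, 0.01 and -0.18 over all genes. Among all genes, 19.5% were called lower and 12.4% higher on stimulation, and 16.6% higher and 14.3% lower with TRAIL. Itgad (αD), known from macrophages of the splenic red pulp, had means of 61.7, 0.128 and 61.8 TPM (log2 changes -5.79 and 5.80, adjusted p 1.9e-10 and 2.3e-10). Itgb5 (β5, a partner of αV), Itga9 (α9, a partner of β1) and Itgax (αX, a dendritic cell and macrophage chain) had log2 changes on stimulation of -3.56, -3.11 and -2.94 (adjusted p 1.3e-08, 7.5e-08 and 6.6e-08). Itga6, the laminin receptor chain of T cells and platelets, had means of 98.9, 24.4 and 113.1 TPM and rose by 2.19 with TRAIL (adjusted p 2.6e-06). The myeloid list given above moved in the same directions, and the part of such cells in these values was not tested.

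As a description over the 9 libraries, genes whose log2(TPM + 1) followed a member most closely were sought among 10456 genes with a group mean of at least 10 TPM. These points are 3 groups of libraries, so such a correlation mostly restates the order of the group means, and no test was made. For S1pr1 they were Mertk, Gab3 and Tdrp (Pearson r 0.9983, 0.9982 and 0.9980), for S1pr4 Il5ra, Ctsw and Rubcnl (0.9979, 0.9972 and 0.9960), for Itga4 Antxr2, Ighv9-3 and Pecam1 (0.9994, 0.9993 and 0.9993) and for Itgb7 Sun2, Il6ra and Ighv1-66 (0.9991, 0.9982 and 0.9980). For Cd69 they were Gm2999, Selenok and H3f3b (0.9894, 0.9828 and 0.9795). Cd44 had the lowest values, with 2310015A10Rik, Dcaf4 and C3 (0.9689, 0.9641 and 0.9614). For Itgal they were Vps33a, Flii and Stat6 (0.9948, 0.9938 and 0.9917), for Itgb2 Zscan29, Vezf1 and Msn (0.9973, 0.9969 and 0.9954) and for Itgb1 Dnajc3, Gpatch11 and BC002059 (0.9856, 0.9835 and 0.9806).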

How the data were processed

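RNA-seq was measured in 9 libraries of mouse splenic CD4+ T cells, grouped by the sample labels, and all were used. The authors sequenced paired-end reads of mRNA libraries and deposited 1 table with TPM for each gene and library. The paper gives GRCm38, whereas the submitters' processing notes list GRCh38, beside Trimmomatic 0.36, HISAT2 2.1.0, SAMtools 1.2, StringTie 2.1.2 and DESeq2. All 9 loci matched GENCODE M21 on GRCm38. The program behind the TPM values, the annotation release and the strand setting are not given in the sources used here, so reads of overlapping genes on opposite strands may be mixed.

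For tests between groups, log2(TPM + 1) of all 9 libraries was fitted by group in limma 3.58.1 (R 4.3.3), with a variance trend in eBayes, no replicate block and Benjamini-Hochberg adjustment over 15536 genes. On this scale the changes of low genes are understated. TPM is no count, so no count model was used. Ratios within libraries were compared with exact two-sided permutation tests (scipy 1.17.1), on log2 ratios of TPM + 1, adjusted over 15 tests. Tables and figures used Python 3.11.15, pandas 2.3.3 and matplotlib 3.10.9.

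The values of some genes are not reported here. The 9 genes and all lists were chosen with earlier results of these data known. From each list at most 4 called genes with a group mean of at least 10 TPM and the largest absolute change were eligible to be named in each comparison, and for each of the 9 genes the 3 most like it. Alternative fits used another pseudocount, filter or scaling of libraries, no variance trend, 2 groups only, a replicate block or no fold limit, or left out each library in turn. Housekeeping genes were also listed: of 12, 4 rose and 1 fell on stimulation, 1 rose and 3 fell with TRAIL, and 0 were called in TRAIL-treated against medium cells.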

Additional observations from a re-analysis of the deposited data

How the results depend on the processing

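Calling genes by the adjusted p alone gave 7 of the 9 genes in stimulated against medium cells in place of 4, 3 in TRAIL-treated against medium cells in place of 0, and 6 in TRAIL-treated against stimulated cells in place of 4. Otherwise the calls of the 9 genes were the same under 19 of 20 alternatives in stimulated against medium cells, the exception being quantile normalization (Itgb2), under 18 of 20 in TRAIL-treated against stimulated cells, the exceptions being median-of-ratios scaling and the fit without TRAIL-treated replicate 1 (Cd69), and under 20 of 20 in TRAIL-treated against medium cells. Values that changed sign were those of Itgal in TRAIL-treated against stimulated cells (0.05 under median-of-ratios scaling, 0.17 under quantile normalization, -0.27 to 0.07 with single libraries left out) and of Itgb7 in TRAIL-treated against medium cells (0.06 under median-of-ratios scaling, -0.21 to 0.01 with single libraries left out). The cause was not tested.

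Over all genes, the median log2 difference of TRAIL-treated from medium cells shifted by 0.17 with median-of-ratios scaling and by 0.14 with quantile normalization, and the latter shifted that of stimulated from medium cells by 0.19. The share of called genes that were higher was then 74.2% and 70.6% in place of 53.9%, and 52.1% in place of 38.8%. With a pseudocount of 5 TPM 2946, 2883 and 332 genes were called in the 3 comparisons, in place of 4959, 4800 and 718, and with 0.1 TPM 1167 in the last. By the adjusted p alone they were 10678, 10420 and 5063.

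With the replicate number as a block, the replicate block fit called 4, 4 and 0 of the 9 genes, as without it. Deviations of same-numbered libraries from their group means correlated at -0.306 to 0.295, so the numbers were not taken to pair the libraries. No ratio changed sign under a pseudocount of 0.1 TPM or with a library left out. Depth is unknown, and no counting error can be given.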

Other observations

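Of 15 genes of ligands of these integrins and of CD44 ligand synthesis, 9 were tested. On stimulation 2 rose and 3 fell, with TRAIL 4 rose and 2 fell, and 1 rose in TRAIL-treated against medium cells, with medians of -0.94, 0.73 and -0.20. Among all genes tested, 12.4% were called higher and 19.5% lower on stimulation, and 16.6% higher and 14.3% lower with TRAIL. Vcam1, the ligand of VLA-4 and a gene of the myeloid list, had mean levels of 226.2 (medium), 2.24 (stimulated) and 196.1 TPM (TRAIL-treated) (log2 changes -6.13 and 5.93, adjusted p 9.2e-11 and 8.2e-11). Icam1, a ligand of LFA-1, moved the opposite way with 36.5, 100.4 and 38.6 TPM (1.44 and -1.36, adjusted p 1.5e-06 and 2.6e-06), while Icam2 fell by 1.79 on stimulation (adjusted p 1.9e-07). Fn1, fibronectin, fell by 3.48 and rose by 3.20 (adjusted p 1.5e-08 and 3.3e-08). Thbs1, thrombospondin 1, had 4.58, 3.07 and 26.4 TPM and rose by 2.77 with TRAIL and by 2.30 against medium (adjusted p 5.5e-07 and 2.6e-05).

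Of 7 genes of proteins that link or accompany CD44, 1 fell on stimulation (Cd74, by 2.51, adjusted p 2.5e-08), and with TRAIL Cd74 rose by 1.61 (adjusted p 6.8e-07) and Nf2 fell by 1.02 (adjusted p 6.3e-04). None was called in TRAIL-treated against medium cells, and the medians were -0.28, 0.02 and -0.28. Cd74 had means of 3118, 546.1 and 1668 TPM. The B cell list given above moved in the same directions, and the part of such cells in these values was not tested. The shares of all genes called, given with the ligand genes, also stand beside the counts of this list and the next. Of 18 genes that neighbour Cd69, resemble it or encode its reported partners, 13 were tested, of which 10 fell and 0 rose on stimulation, 8 rose and 0 fell with TRAIL and 3 fell in TRAIL-treated against medium cells, with medians of -2.48, 1.19 and -0.53. The named genes were S100a8 and S100a9, with log2 changes on stimulation of -4.05 and -4.37 (adjusted p 2.7e-07 and 5.3e-08), which are known from neutrophils, Clec1b, which fell by 3.70 (adjusted p 9.6e-09) and is known from platelets, and Clec12a, which fell by 3.30 (adjusted p 1.2e-08) and is known from myeloid cells. Klrb1c, an NK cell receptor gene, fell by 1.56 in TRAIL-treated against medium cells (adjusted p 2.0e-04).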
